A study of Mus musculus with 24 samples.

Results

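The interferon response genes are a list of 45 mouse genes that cells switch on when interferon signals, or that carry the signal. The list was chosen with earlier results of these data known, so its counts beside the shares of all genes are descriptive. One Affymetrix probe set was taken for each gene symbol, the one with the highest mean over all arrays, wherever a probe set maps to that symbol and no other. Of the 45 genes, 43 were measured in this way, among 18193 genes in all. Isg15 lies on a probe set with several symbols and Ifi44 on none that could be used, so neither has a value here. Of the measured genes, 24 have 1 probe set and 19 have more.

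RNA was measured on 24 arrays in 8 groups of 3. P19 cells are a mouse embryonal carcinoma line, and MEFs are mouse embryonic fibroblasts, here from mice that lack both Myod and Myf5 (Myod-/-/Myf5-/-), so that every MEF group, controls included, carries both deletions. The groups are untransduced P19 controls and P19 cells with a MyoD lentivirus (batch 1), untransduced P19 controls and P19 cells with a NeuroD2 lentivirus (batch 3), untransduced MEF controls and MEFs with MyoD (batch 1), and untransduced MEF controls and MEFs with NeuroD2 (batch 2). MyoD is a transcription factor that starts skeletal muscle differentiation, and NeuroD2 is a related factor that starts neuronal differentiation. Transduced cells were exposed to virus with 8 µg/ml polybrene and got fresh medium after 24 hours. P19 cells were collected at 72 hours. After 48 hours the MyoD MEFs went into differentiation medium, which is low in horse serum and has insulin and transferrin, and were collected 36 to 40 hours later. The labels give no collection time for the NeuroD2 MEFs. The controls were untransduced, so virus, medium, time in culture and factor cannot be told apart in any of these comparisons. Nothing says that replicates came from separate animals or cultures, and p-values then measure only the spread between these samples, which may be technical.

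Interferons are secreted proteins that bind receptors on the cell surface. The type I receptor, made of Ifnar1 and Ifnar2, acts through Janus kinases on transcription factors, and a complex that holds STAT2 and IRF9 binds a DNA element called the interferon-stimulated response element (ISRE). Interferon gamma acts chiefly at a different element, the gamma-activated site (GAS). The induced genes encode antiviral enzymes, GTPases, sensors of viral RNA and the machinery that loads peptides on MHC class I, and many fibroblasts keep a low level of this programme without infection, while pluripotent cells are known to respond weakly to interferon.

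Promoters are shown before the values, since the ISRE is the element through which type I interferon reaches its target genes. RefSeq promoters of mouse build GRCm38.p6, 250 bases before to 50 bases after each annotated start, were matched for 35 of the 45 genes. The core GAAANNGAAA, on either strand, was found in 15 of the 35 (42.9%), against 3.99% of 27025 genes with a promoter and 3.44% of all 32851 promoters. The GAS core TTCNNNGAA, which can overlap the ISRE core, was in 9 of the 35 (25.7%), against 9.55% of genes and 8.3% of promoters. CAGCTG, the only form of the E-box motif that was searched, was in 6 (17.1%), against 18.3% of genes and 16.3% of promoters. Among members whose RNA fell in MEFs with MyoD, 11 of 26 (42.3%) held the ISRE core, and among those not called 3 of 7 (42.9%) did. Of all 10 measured members not called there, 7 were under the median of all gene-level values (7.03) in both groups. At such low signals a fall could hardly show. A match is a description of letters in a window and no evidence of binding. Below are the 250 bases before the start for 5 members that fell in MEFs with MyoD (Ifit1, Ifit3, Gbp2, Igtp, Bst2) and for Oas3 and Rsad2, which hold the same core and were not called there. They were chosen after their values were seen. Each is given 5′ to 3′ on the gene's strand, with ISRE and GAS cores in capitals.
Ifit1 (chr19:34640639-34640888, plus strand): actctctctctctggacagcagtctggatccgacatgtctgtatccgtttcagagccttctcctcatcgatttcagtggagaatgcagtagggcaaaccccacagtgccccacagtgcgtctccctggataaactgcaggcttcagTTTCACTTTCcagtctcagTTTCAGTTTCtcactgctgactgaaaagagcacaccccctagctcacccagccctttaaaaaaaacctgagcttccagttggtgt
Ifit3 (chr19:34583279-34583528, plus strand): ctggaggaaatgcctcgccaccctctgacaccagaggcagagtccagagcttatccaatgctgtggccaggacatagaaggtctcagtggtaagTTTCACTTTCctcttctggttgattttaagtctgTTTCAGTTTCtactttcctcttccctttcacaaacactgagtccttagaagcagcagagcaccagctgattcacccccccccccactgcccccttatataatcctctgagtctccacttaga
Gbp2 (chr3:142620413-142620662, plus strand): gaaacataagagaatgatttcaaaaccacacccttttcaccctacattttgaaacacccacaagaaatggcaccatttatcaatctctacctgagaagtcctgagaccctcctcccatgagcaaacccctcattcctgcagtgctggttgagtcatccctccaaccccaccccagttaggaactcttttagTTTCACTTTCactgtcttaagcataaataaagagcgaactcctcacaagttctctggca
Igtp (chr11:58199306-58199555, plus strand): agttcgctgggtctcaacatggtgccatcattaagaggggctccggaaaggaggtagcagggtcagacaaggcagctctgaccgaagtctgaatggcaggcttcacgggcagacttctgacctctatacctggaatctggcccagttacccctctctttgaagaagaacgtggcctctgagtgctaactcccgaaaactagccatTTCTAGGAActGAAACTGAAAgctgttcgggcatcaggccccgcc
Bst2 (chr8:71537473-71537722, minus strand): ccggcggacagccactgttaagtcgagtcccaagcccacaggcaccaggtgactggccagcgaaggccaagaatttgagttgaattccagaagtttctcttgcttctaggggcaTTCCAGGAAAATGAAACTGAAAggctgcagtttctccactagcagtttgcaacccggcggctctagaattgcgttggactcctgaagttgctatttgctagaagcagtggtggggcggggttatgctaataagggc
Oas3 (chr5:120777660-120777909, minus strand): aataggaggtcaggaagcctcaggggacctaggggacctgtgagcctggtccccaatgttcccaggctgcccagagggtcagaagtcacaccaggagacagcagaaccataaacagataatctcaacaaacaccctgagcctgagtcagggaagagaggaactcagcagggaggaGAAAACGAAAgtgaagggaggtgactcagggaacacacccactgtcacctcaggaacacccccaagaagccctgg
Rsad2 (chr12:26456453-26456702, minus strand): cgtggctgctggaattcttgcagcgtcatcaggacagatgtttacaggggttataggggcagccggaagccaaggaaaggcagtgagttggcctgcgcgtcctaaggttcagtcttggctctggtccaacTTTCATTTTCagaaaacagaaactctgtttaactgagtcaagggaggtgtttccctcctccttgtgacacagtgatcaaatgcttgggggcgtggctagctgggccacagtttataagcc

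In Ifit1 and Ifit3 the capitals mark a pair of ISRE cores each, read on the opposite strand, and in Gbp2 and Rsad2 a single one in that orientation. Oas3 holds 1 forward core. Igtp holds 1 forward ISRE core and Bst2 a pair that overlap, and both also hold a GAS core, which in Bst2 runs into the first ISRE core. Gbp2, Oas3 and Rsad2 thus hold 1 core each. With MyoD in MEFs Gbp2 fell (log2 difference -4.46), while the differences of Oas3 and Rsad2 were 0.01 and -0.06, neither of them called.

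Values are the deposited log2 signals, where a step of 1 is a doubling. Lower signals lie closer to background, and the table has no detection calls. Quartiles of 23 arrays matched closely (upper quartile 8.23 to 8.39), while the array of P19 control replicate 2 of batch 1 stood apart (7.63, and a mean correlation of 0.919 with its own group against 0.957 to 0.998 for the others). Counts from the fit are also given without it. Myod1 RNA was 12.73 in MEFs with MyoD against 7.18 in their controls, and 9.66 against 5.72 in P19 cells. Neurod2 rose in P19 cells with NeuroD2 on 1 of 3 probe sets (7.68 against 5.98), and on none in MEFs labelled NeuroD2, where the differences were 0.21, -0.06 and -0.12. The Neurod2 probe sets thus give no check of that label, and "MEFs with NeuroD2" stands for the arrays so labelled throughout. Whether these probe sets lie in the part of the gene that the virus carries is not known here. All 8 fibroblast markers were higher in MEF than in P19 controls and all 8 pluripotency markers lower, all 8 muscle markers rose in MEFs with MyoD, and all 8 neuronal markers rose in P19 cells with NeuroD2. Of the muscle markers 6 of 8 rose in P19 cells with MyoD (2.03% of all genes). Only 1 of 8 neuronal markers rose in MEFs with NeuroD2 (6.41% of all genes). With 3 arrays a group, the number of arrays limits the precision.

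Across the 8 groups, members were brightest in MEFs and lower in MEFs with MyoD. The median member level was 9.28 in MEF controls of batch 1, 8.75 in those of batch 2 and 8.43 in MEFs with NeuroD2. It was 7.05 in MEFs with MyoD, and between 5.85 and 6.15 in the 4 P19 groups. The median of all genes stayed between 6.95 and 7.16 in every group. Of the 43 members, 25 had their highest group mean in MEF controls of batch 1, 7 in those of batch 2 and 8 in MEFs with NeuroD2. Irf1, Samhd1 and Bst2 were among the few with high signal in P19 cells as well, as the map of signals by array shows. In RNA from whole cultures, fewer cells that make a transcript and less of it per cell cannot be told apart.

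**Figure D1:**
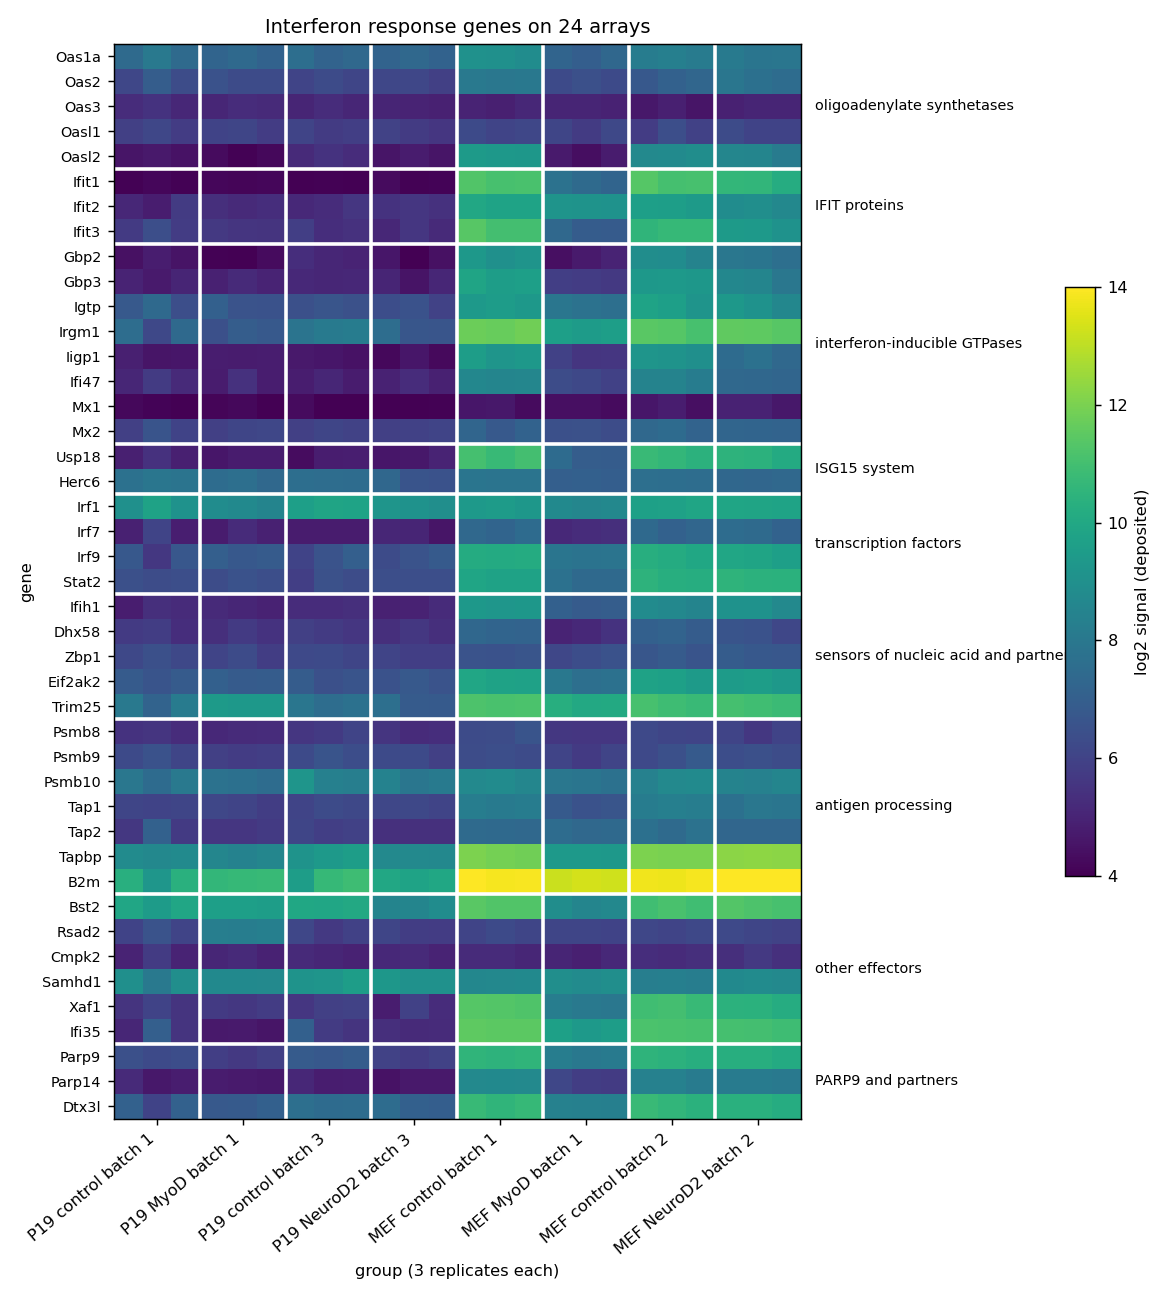
Deposited log2 signal (colour scale) of the 43 measured genes (rows, grouped by role) on 24 arrays (columns, 3 per group). The MEF control and MEF NeuroD2 columns are bright in most rows, the P19 columns dark in most, and the MEF MyoD columns lie between them.

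MEFs with MyoD showed a broad fall. Against MEF controls of the same batch, 33 of 43 members were lower and 0 higher at an adjusted p under 0.05 (limma, two-sided, Benjamini-Hochberg over 18193 genes). Here "fell", "rose" and "called" always mean that threshold, and a difference is the mean log2 signal of the first group minus that of the second. Of all genes, 14.5% were called lower and 10.8% higher in this comparison. The median member difference was -1.93 against 0.00 over all genes, and 37 members had groups that did not overlap, as did 57.1% of all genes. Of the 33, 20 fell at least 4-fold and 27 at least 2-fold. Of the 33 calls, 31 held in every alternative setting in which the gene had a value (31 to 33 settings a gene), and those of Ifit2 and Tap1 ended in 1 setting each. Without the P19 array that stands apart, 35 were lower and 0 higher, against 22.5% and 18.1% of all genes in that fit.

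Oligoadenylate synthetases make the short adenylate chains that activate an RNA-cutting enzyme, and 3 of 5 fell in MEFs with MyoD. Oasl2, an oligoadenylate synthetase-like protein, read 9.44, 9.33 and 9.28 in the controls and 4.74, 4.36 and 4.75 with MyoD. It fell (difference -4.73, SE 0.13, adjusted p = 6.52e-17), and the values with MyoD lay near those of P19 controls of batch 1 (4.56, 4.69 and 4.48) and below those of batch 3 (5.19, 5.45 and 5.28). They are also near the lower quartile of the arrays (4.47 to 4.58 on the 23), where a low level and background cannot be told apart, so no fold is given for Oasl2 or for Gbp2, which ended as low. Oas1a and Oas2 fell by 1.79 and 1.71. Oas3 read 5.01, 4.87 and 5.10 in controls and 5.02, 5.03 and 4.98 with MyoD, low and overlapping values (difference 0.01, adjusted p = 0.98). Oasl1, whose gene is next to Oasl2, differed by -0.14 (adjusted p = 0.688). Against controls of batch 2 the falls of Oas1a and Oas2 were smaller, -1.03 and -0.75.

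IFIT proteins bind viral RNA that lacks the host's cap marks, and all 3 fell. Ifit3 read 11.40, 11.02 and 11.01 in controls and 7.38, 6.93 and 6.86 with MyoD. Ifit1 read 11.28, 11.07 and 11.13 in controls and 7.76, 7.45 and 7.24 with MyoD. These falls were 17-fold (difference -4.09, SE 0.19, adjusted p = 5.01e-13) and 12.8-fold (difference -3.68, SE 0.13, adjusted p = 6.46e-15), with no overlap between groups. Ifit2 moved far less, from 9.99, 9.80 and 9.79 to 9.19, 9.12 and 9.09 (difference -0.72, SE 0.17, adjusted p = 0.00221), and against controls of batch 2 its difference was -0.43 with an adjusted p of 0.0581. With MyoD the IFIT genes stayed above P19 controls of batch 1, where Ifit1 read 4.08, 4.16 and 4.04, Ifit2 5.11, 4.79 and 5.74 and Ifit3 5.69, 6.40 and 5.77, and Ifit3 had the smallest gap.

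Interferon-inducible GTPases attack the vacuoles of intracellular microbes or, for the Mx proteins, viral particles, and 7 of 8 fell. Gbp2, a guanylate-binding protein, read 9.33, 9.01 and 9.18 in controls and 4.41, 4.73 and 5.0 with MyoD. Iigp1, an immunity-related GTPase, went from 9.56, 9.23 and 9.31 to 5.95, 5.54 and 5.57. Gbp2 fell (difference -4.46, SE 0.18, adjusted p = 5.28e-14) and Iigp1 12.8-fold (difference -3.68, SE 0.14, adjusted p = 1.15e-14), and in neither did any array with MyoD come near a control. The second probe set of each gene fell too, by 4.77 for Gbp2 and by 2.27 for Iigp1. Both probe sets thus moved the same way. Igtp, another immunity-related GTPase, read 9.41, 9.54 and 9.32 in controls and 7.91, 7.77 and 7.65 with MyoD, a smaller fall of 1.65 (SE 0.23, adjusted p = 7.57e-06). Gbp3, Ifi47, Irgm1 and Mx2 also fell, with differences of -3.91, -2.46, -2.16 and -0.66. Mx1, at 4.62, 4.64 and 4.31 in controls and 4.43, 4.43 and 4.28 with MyoD, had low and overlapping values (difference -0.14, adjusted p = 0.62).

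**Figure D2:**
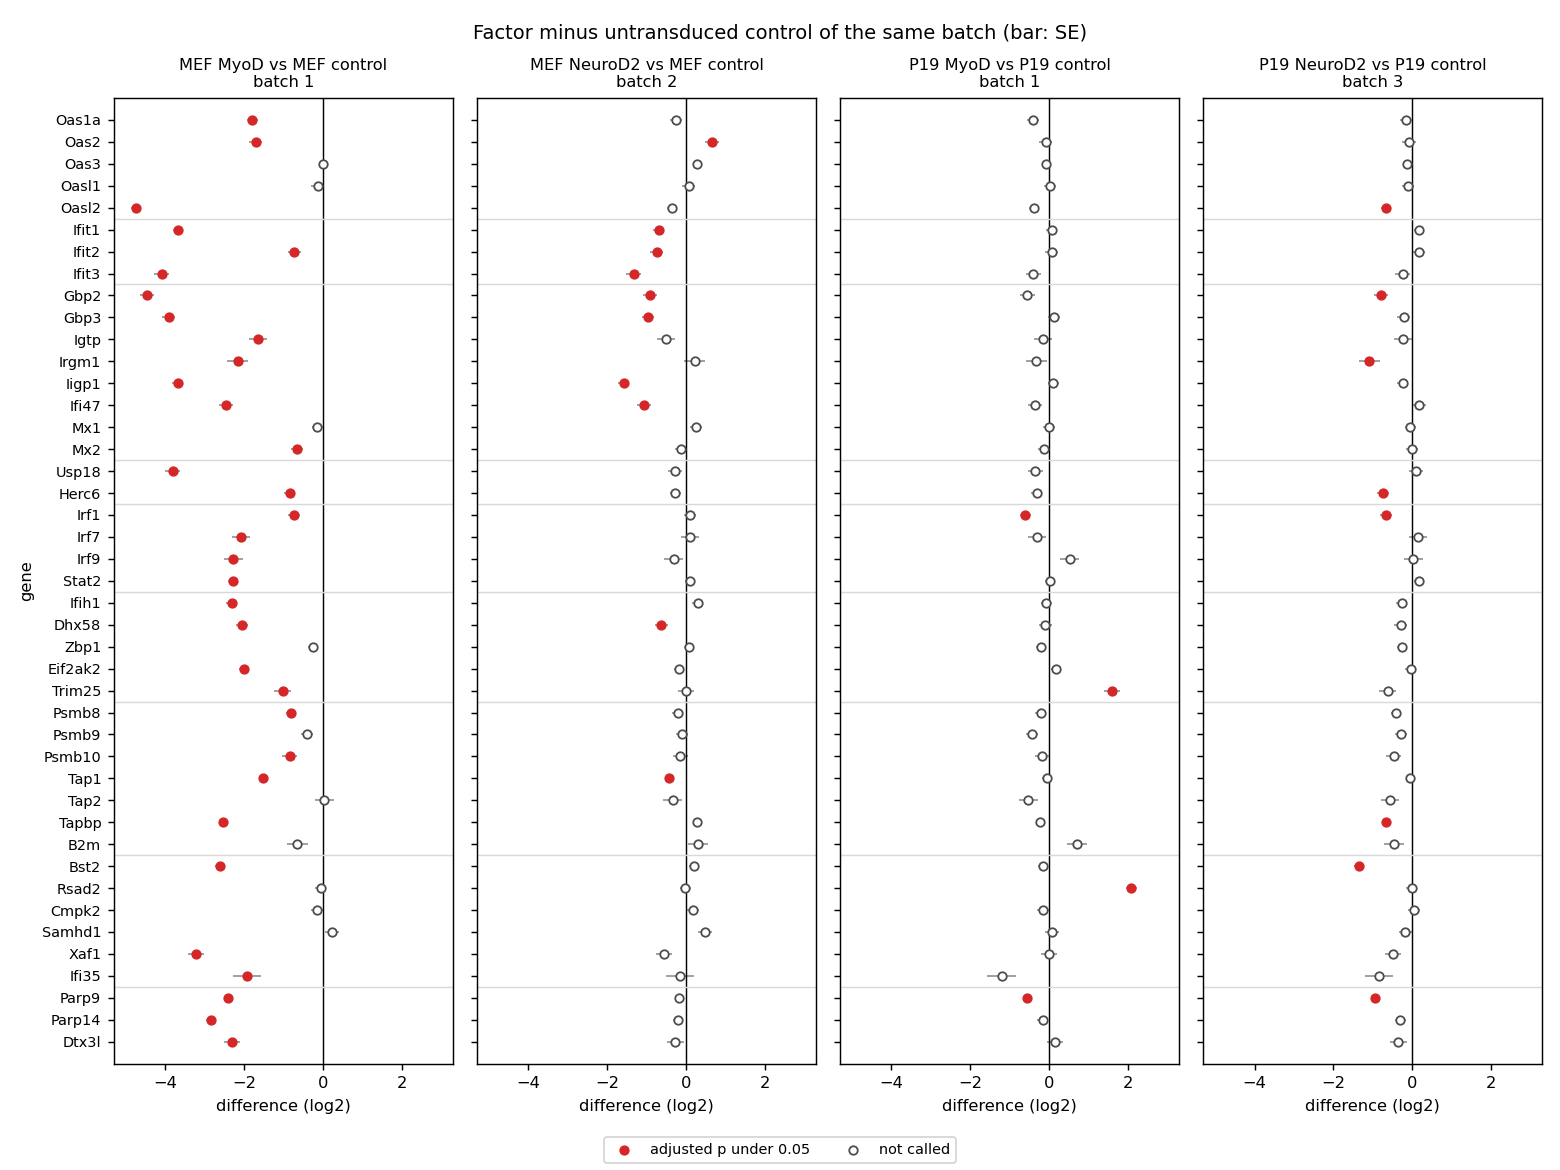
Difference from the untransduced control of the same batch (log2, horizontal axis, with SE) for 43 members (vertical axis, in the order of the map of signals) in the 4 factor comparisons. Filled points have an adjusted p under 0.05: 33 lower in MEFs with MyoD, 9 lower and 1 higher in MEFs with NeuroD2, 2 lower and 2 higher in P19 cells with MyoD, and 8 lower in P19 cells with NeuroD2.

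ISG15 is a ubiquitin-like tag, removed by Usp18, which also blocks the type I receptor, while Herc6 attaches the tag in mice. Usp18 read 11.07, 10.73 and 11.01 in MEF controls and 7.50, 6.94 and 6.92 with MyoD, a fall of 14.1-fold (difference -3.82, SE 0.19, adjusted p = 8.52e-13). Herc6 read 7.90, 7.84 and 7.85 in controls and 7.02, 7.05 and 6.99 with MyoD, a fall of 0.84 (SE 0.15, adjusted p = 0.000117). Groups did not overlap for either gene. Herc6 has 3 further probe sets, with differences of -2.14, -0.64 and -0.72, the second of them not called.

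All 4 transcription factors of the list fell. Stat2, the STAT specific to type I and III signals, read 9.87, 9.76 and 9.78 in controls and 7.72, 7.44 and 7.41 with MyoD. Irf9, its DNA-binding partner, read 10.15, 10.11 and 10.13 in controls and 7.91, 7.81 and 7.84 with MyoD. Irf7, which amplifies interferon production, read 7.36, 7.22 and 7.48 in controls and 5.16, 5.28 and 5.35 with MyoD. The 3 differences were close to each other, -2.28 for Stat2 (SE 0.13, adjusted p = 6.77e-12), -2.28 for Irf9 (SE 0.24, adjusted p = 2.17e-07) and -2.09 for Irf7 (SE 0.23, adjusted p = 3.05e-07), with no overlap in any. Irf1, induced chiefly by interferon gamma, read 9.38, 9.50 and 9.30 in controls and 8.74, 8.57 and 8.68 with MyoD and fell by 0.73 (SE 0.15, adjusted p = 0.000737). Of the 4, Irf1 also had a high signal in P19 controls (9.03, 9.77 and 9.09), where Stat2, Irf7 and Irf9 were low.

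Of the sensors of nucleic acid and their partners, 4 of 5 fell. Ifih1 (MDA5), a sensor of long double-stranded RNA, read 9.31, 9.24 and 9.28 in controls and 7.08, 6.88 and 6.94 with MyoD. Eif2ak2 (PKR), a kinase that stops translation on double-stranded RNA, read 9.93, 9.76 and 9.73 in controls and 8.00, 7.67 and 7.75 with MyoD. They fell by 2.31 (SE 0.14, adjusted p = 2.69e-11) and 2.00 (SE 0.14, adjusted p = 1.89e-10), and both other probe sets of Eif2ak2 fell by 1.99. Dhx58, a helper of Ifih1, fell by 2.06, or by 1.03 as the mean of its probe sets. Trim25, a ubiquitin ligase that activates RIG-I, fell by 1.02. Zbp1, a sensor of left-handed nucleic acid, read 6.56, 6.53 and 6.65 in controls and 6.12, 6.35 and 6.51 with MyoD (difference -0.25, adjusted p = 0.179). Zbp1 was called lower as the mean of its probe sets (-0.81, adjusted p = 0.000219), with array weights (-0.22) and against controls of batch 2 (-0.39).

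Of the antigen processing genes, 4 of 7 fell. Tapbp, which bridges MHC class I and the peptide transporter, read 12.04, 11.90 and 11.82 in controls and 9.39, 9.39 and 9.35 with MyoD, a fall of 5.83-fold (difference -2.54, SE 0.10, adjusted p = 1.97e-14). The transporter's subunits parted: Tap1 read 8.25, 8.09 and 8.20 in controls and 6.84, 6.51 and 6.65 with MyoD (difference -1.51, SE 0.11, adjusted p = 5.49e-10), and Tap2 read 7.45, 7.40 and 7.37 in controls and 7.52, 7.39 and 7.41 with MyoD (difference 0.03, SE 0.23, adjusted p = 0.968). The 3 dimmer probe sets of Tap1 were not called (-0.23, -0.09 and -0.03), and as the mean of all 4 its fall was not called either (-0.46, adjusted p = 0.0629). B2m, the light chain of MHC class I, read 14.02, 13.88 and 13.89 in controls and 13.20, 13.34 and 13.29 with MyoD. Its groups did not overlap, and its difference of -0.65 was not called (SE 0.26, adjusted p = 0.0734). The spread in the fit is shared by all 8 groups, and in P19 controls of batch 1 B2m read 10.31, 9.26 and 10.36. Without the P19 array that stands apart B2m and Psmb9 were called lower (adjusted p = 0.0108 and 0.0223).

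The immunoproteasome subunits Psmb8, Psmb9 and Psmb10 take the place of the standard catalytic subunits Psmb5, Psmb6 and Psmb7. Psmb8 read 6.27, 6.34 and 6.60 in MEF controls and 5.63, 5.56 and 5.58 with MyoD, and Psmb10 8.70, 8.82 and 8.59 in controls and 7.96, 7.88 and 7.75 with MyoD. They fell by 0.81 (SE 0.14, adjusted p = 7.84e-05) and 0.84 (SE 0.19, adjusted p = 0.00218). Psmb9 read 6.33, 6.42 and 6.27 in controls and 6.06, 5.69 and 6.07 with MyoD (difference -0.40, adjusted p = 0.062), and was called lower in 6 alternative settings, among them controls of batch 2 (-0.55). The standard subunits moved the other way, with rises of 0.40 in Psmb5 (11.79, 11.82 and 11.80 to 12.22, 12.17 and 12.19) and 0.67 in Psmb7 (12.09, 12.04 and 12.07 to 12.74, 12.73 and 12.73), and a difference of 0.34 in Psmb6 that was not called (adjusted p = 0.0579). As the mean of its 2 probe sets Psmb8 fell by 0.37. In MEFs with NeuroD2 the 6 differences ran from -0.28 (Psmb5) to 0.01 (Psmb7), and they were not called there or in either P19 comparison.

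**Figure D3:**
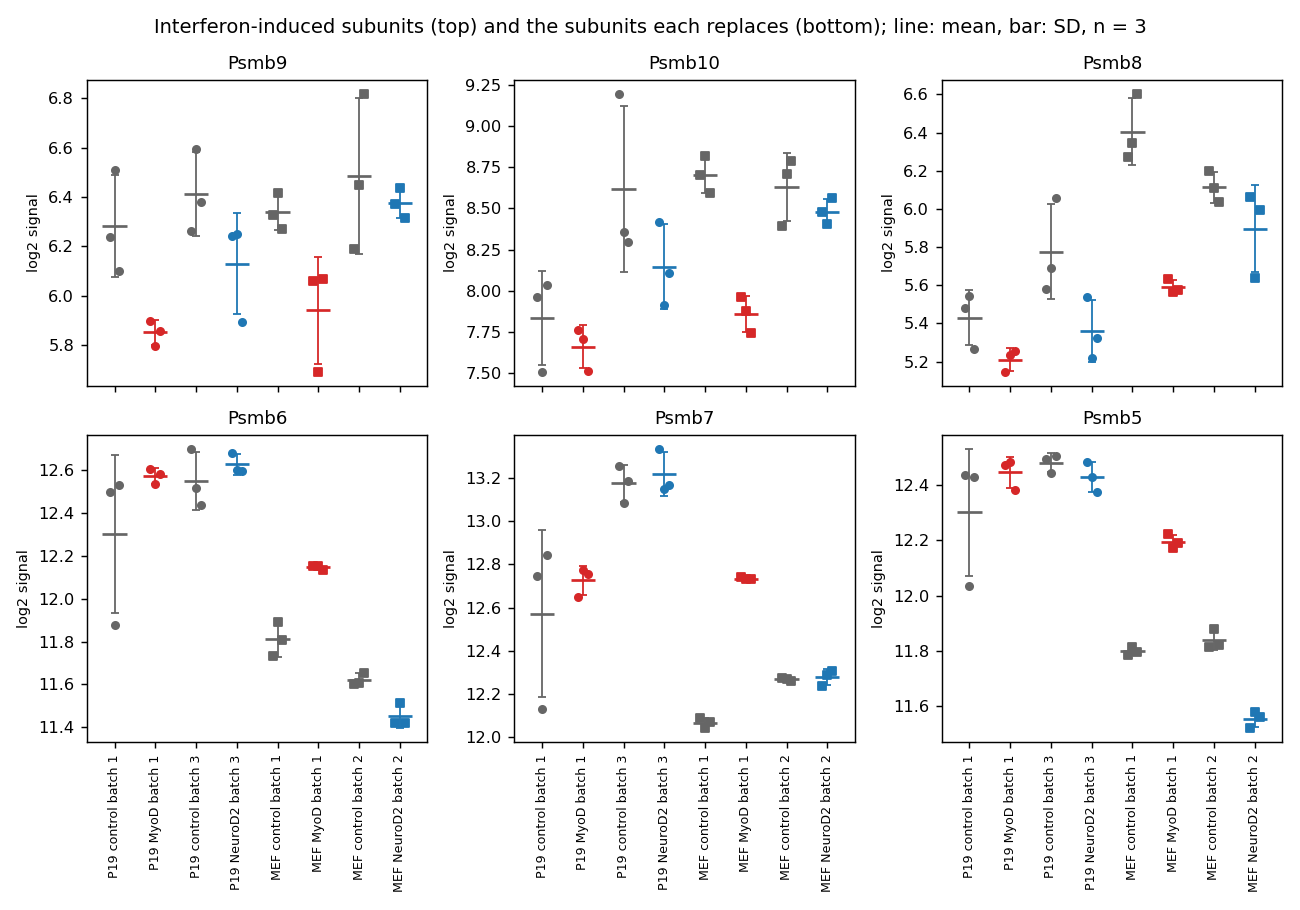
Log2 signal (vertical axes, each with its own range) of 3 immunoproteasome subunits (top) and the standard subunits they replace (bottom) in 8 groups (horizontal axis), with points for arrays, lines for means and bars for SD (n = 3). In MEFs of batch 1, Psmb8 and Psmb10 were lower with MyoD than in controls, and Psmb5 and Psmb7 were higher.

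Of the other effectors, 3 of 6 fell, and the PARP9 group fell as a whole. Xaf1, a pro-apoptotic interferon target, read 11.35, 11.34 and 11.23 in controls and 8.23, 8.04 and 7.98 with MyoD (difference -3.22, SE 0.20, adjusted p = 5.46e-11). Bst2 (tetherin), which holds budding virus at the cell surface, read 11.44, 11.28 and 11.29 in controls and 8.92, 8.56 and 8.68 with MyoD (difference -2.62, SE 0.13, adjusted p = 8.12e-13). With MyoD, Bst2 in MEFs lay below its level in P19 controls (9.91, 9.50 and 9.93). Ifi35 fell by 1.93. Rsad2 (viperin), an enzyme that makes a chain-terminating nucleotide, read 6.05, 6.23 and 6.11 in controls and 6.10, 6.09 and 6.03 with MyoD (difference -0.06, adjusted p = 0.885). Samhd1, which destroys the nucleotides that reverse transcription needs, read 8.64, 8.65 and 8.74 in controls and 8.95, 8.84 and 8.93 with MyoD (difference 0.23, adjusted p = 0.437). Samhd1 groups did not overlap, and it was called higher in 4 alternative settings, among them controls of batch 2 (0.64). Cmpk2, a mitochondrial nucleotide kinase, differed by -0.16 (adjusted p = 0.609), and as the mean of its probe sets it was called lower (-0.34, adjusted p = 0.00516).

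Parp9, Dtx3l and Parp14 are neighbours on chromosome 16, and Parp9 and Dtx3l form a complex of ADP-ribosyl transferase and ubiquitin ligase. Parp14 read 8.72, 8.74 and 8.72 in MEF controls and 6.11, 5.80 and 5.73 with MyoD, and Dtx3l read 10.74, 10.56 and 10.71 in controls and 8.39, 8.35 and 8.33 with MyoD. Both fell, with differences of -2.84 (SE 0.13, adjusted p = 4.16e-13) and -2.31 (SE 0.21, adjusted p = 1.71e-08), and Parp9 fell by 2.42. Parp14 as the mean of its 2 probe sets fell by 1.61.

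Not all neighbours moved alike. Oasl2 and Oasl1 lie side by side on chromosome 5 with differences of -4.73 and -0.14, Oas2 and Oas3 on the same chromosome with -1.71 and 0.01, and Ifit2 and Ifit3 on chromosome 19 with -0.72 and -4.09. On chromosome 17 the order Psmb9, Tap1, Psmb8, Tap2 gave -0.40, -1.51, -0.81 and 0.03. Among the 10 members not called, 7 had both group means under 7.03, the median of all gene-level values, against 1 of the 33 that fell (Psmb8). A p above the threshold does not show that those genes did not change. Of 22 other probe sets of the called members, 15 were lower, 0 higher and 7 not called.

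Markers of other cells moved beside these falls. In MEFs with MyoD 7 of 8 fibroblast markers fell and 8 of 8 muscle markers rose. Of 11 markers of blood cells and macrophages, 2 were lower and 2 higher, against 14.5% and 10.8% of all genes, with a median difference of 0.01. Their summed linear signal was 743 to 766 in controls and 546 to 551 with MyoD. Cd14, 1 of the 2 that were lower, fell from a mean of 8.07 to 6.13. It was the 1 marker of the 11 with a mean over 7 in controls, so the sum leans on that gene. Ptprc, the marker of all white cells, was at 4.14 and 4.07, near the bottom of the scale. The part of these marker changes in the members' falls was not tested.

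In MEFs with NeuroD2 fewer members were called, 9 lower and 1 higher of 43, against 5.94% and 6.41% of all genes, with a median difference of -0.18 (all genes -0.02). The 9 were all 3 IFIT genes, 4 GTPases, Dhx58 and Tap1. Iigp1 read 9.21, 9.14 and 9.0 in controls of batch 2 and 7.50, 7.74 and 7.37 with NeuroD2, a fall of 2.98-fold (difference -1.58, SE 0.14, adjusted p = 3.55e-08). Ifit3 read 10.55, 10.69 and 10.71 in controls and 9.46, 9.41 and 9.10 with NeuroD2 (difference -1.33, SE 0.19, adjusted p = 3.61e-05). Neither gene's groups overlapped. Ifi47, Gbp3 and Gbp2 fell by 1.06, 0.96 and 0.92, and Ifit2 and Ifit1 by 0.74 and 0.70. Dhx58 and Tap1 fell by 0.63 and 0.42 and lost their calls as the mean of their probe sets (-0.33 and -0.16) and without single arrays (control replicate 2 for each, NeuroD2 replicate 3 for Dhx58 and replicate 1 for Tap1).

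The transcription factors Stat2, Irf7 and Irf9 were not called with NeuroD2. Stat2 read 10.48, 10.28 and 10.24 in controls and 10.50, 10.42 and 10.39 with NeuroD2, Irf7 7.42, 7.09 and 7.31 in controls and 7.52, 7.47 and 7.15 with NeuroD2, and Irf9 10.29, 10.15 and 9.96 in controls and 9.93, 9.85 and 9.66 with NeuroD2. Their differences were 0.10, 0.11 and -0.32, with overlapping groups for Irf7 and Stat2. Usp18, Bst2 and Oasl2 differed by -0.28, 0.20 and -0.36, none of them called. Oas2 was the 1 member that rose, from 6.76, 7.09 and 7.30 to 7.91, 7.68 and 7.55 (difference 0.66, SE 0.17, adjusted p = 0.0119). Its direction depended on the controls: against those of batch 1 (8.06, 7.98 and 7.99) the difference was -0.30 (adjusted p = 0.323). The call also ended after quantile normalization and without control replicate 1 or NeuroD2 replicate 1. Without the P19 array that stands apart, which enters through the shared spread, 17 members were called, 4 higher and 13 lower, against 13.8% and 13.3% of all genes in that fit.

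**Figure D4:**
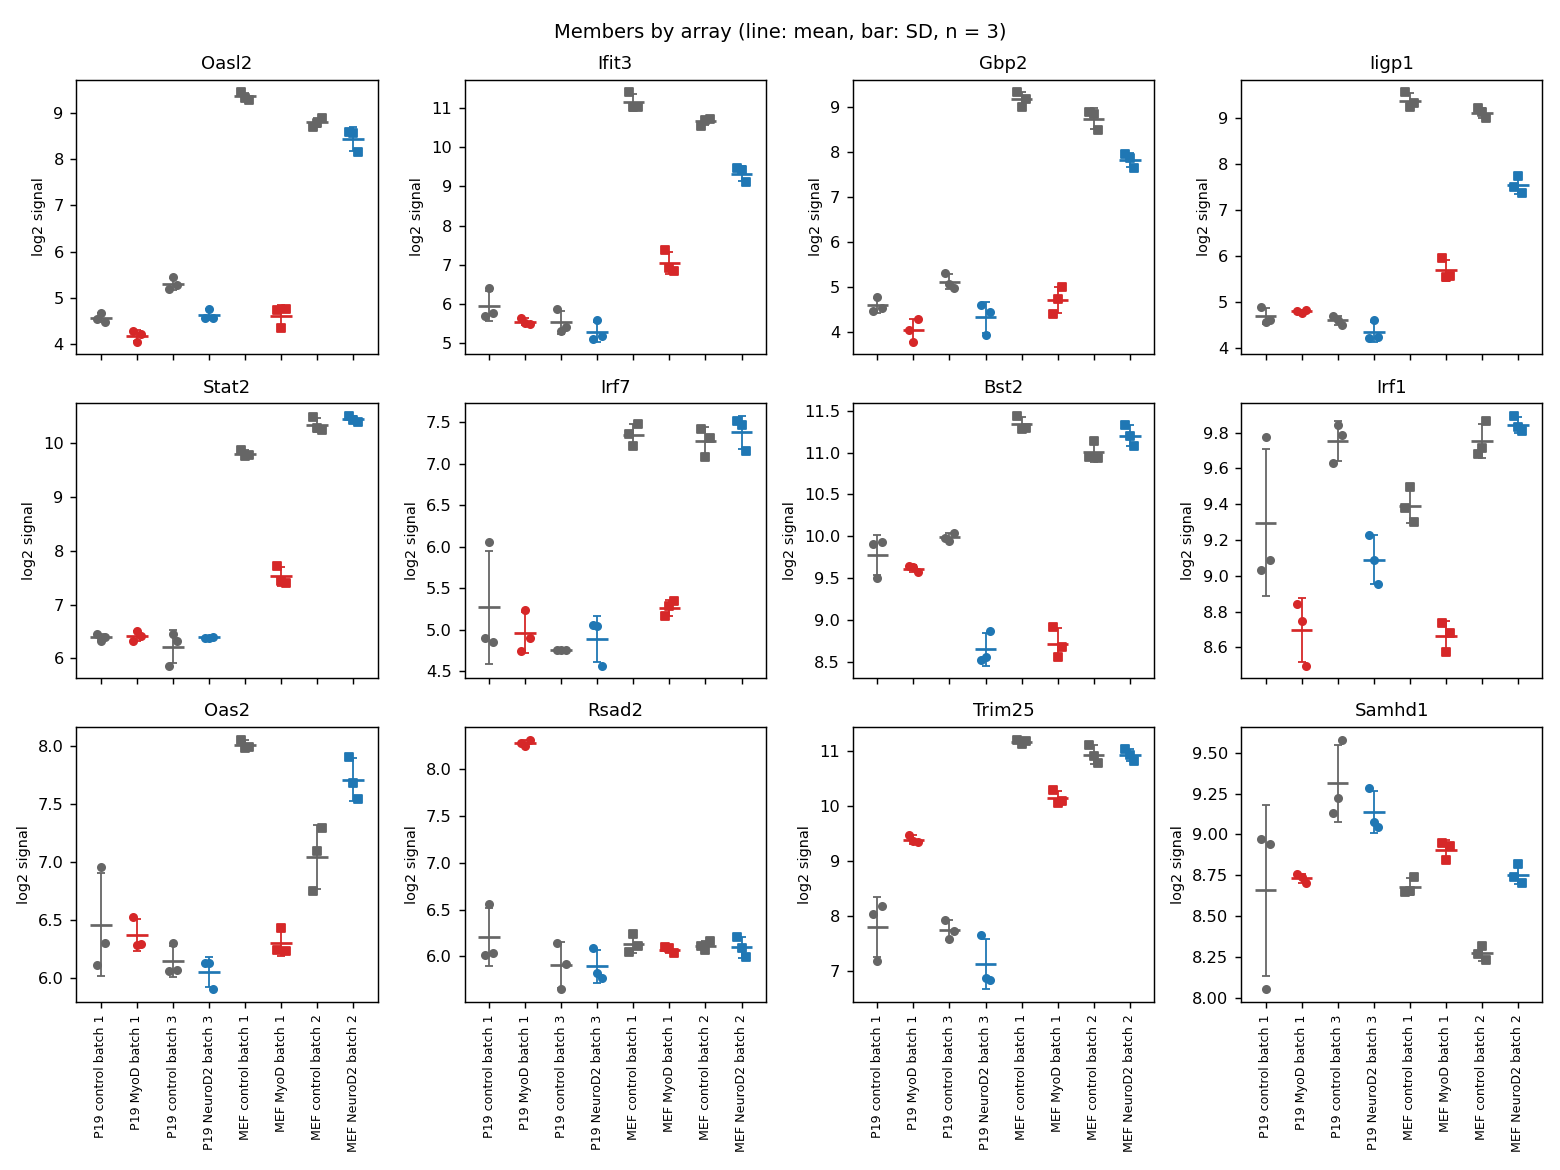
Log2 signal (vertical axes, each with its own range) of 12 members in the 8 groups (horizontal axis), with a point per array, circles for P19 cells and squares for MEFs, lines for means and bars for SD (n = 3). Oasl2, Ifit3, Gbp2, Iigp1, Stat2, Irf7 and Bst2 were lower in MEFs with MyoD than in either MEF control group, and Rsad2 was high in P19 cells with MyoD alone.

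In P19 cells with MyoD few members were called. Of 43, 2 were higher and 2 lower, against 2.03% and 0.676% of all genes, and the median difference was -0.16 (all genes 0.04). Rsad2 read 6.02, 6.56 and 6.04 in controls and 8.28, 8.25 and 8.32 with MyoD. It rose 4.22-fold (difference 2.08, SE 0.14, adjusted p = 3e-09), and its other probe sets rose by 1.06 and 1.95. Every array with MyoD lay above every array of the other 7 groups. Cmpk2, its neighbour on chromosome 12, read 4.98, 5.75 and 5.01 in controls and 5.09, 5.21 and 4.95 with MyoD (difference -0.16, adjusted p = 0.426). Trim25 read 8.03, 7.17 and 8.18 in controls and 9.47, 9.35 and 9.33 with MyoD (difference 1.59, SE 0.21, adjusted p = 8.04e-05), a rise of 3.02-fold seen on 2 of its 3 probe sets (the third 0.37, not called). In MEFs with MyoD, Trim25 fell by 1.02.

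The 2 members that were lower in P19 cells with MyoD were Irf1, at 9.03, 9.77 and 9.09 in controls and 8.84, 8.75 and 8.50 with MyoD, and Parp9, at 6.45, 6.26 and 6.38 in controls and 5.85, 5.67 and 5.88 with MyoD. Irf1 differed by -0.60 (SE 0.15, adjusted p = 0.0318) and Parp9 by -0.56 (SE 0.10, adjusted p = 0.00264). The highest Irf1 control was the array that stands apart, and without that array the difference was -0.36 (adjusted p = 0.0545). Without it Rsad2 and Trim25 rose by 2.26 and 1.28, and Irgm1 and Parp9 fell by 0.76 and 0.61, with 2.09% of all genes higher and 1.85% lower. Fitted on these 6 arrays alone, 1 member remained called, Rsad2, and against P19 controls of batch 3 there were 14 (2 higher, 12 lower). Without replicate 1 or without replicate 3 of the P19 controls there were 12 each (4 higher, 8 lower). Of the 39 members not called, 31 were under 7.03 in both groups. Beyond the list, Parp12, another interferon-induced ADP-ribosyl transferase, rose by 1.75 (adjusted p = 0.000228).

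In P19 cells with NeuroD2, 8 members were lower and 0 higher, against 3.24% and 5.1% of all genes, with a median difference of -0.25 (all genes -0.05). Bst2 read 9.98, 9.94 and 10.04 in controls of batch 3 and 8.52, 8.55 and 8.87 with NeuroD2, a fall of 2.53-fold (difference -1.34, SE 0.13, adjusted p = 2.15e-07) without overlap. Parp9 read 6.89, 6.73 and 6.93 in controls and 5.97, 5.79 and 5.97 with NeuroD2 (difference -0.94, SE 0.10, adjusted p = 1.22e-06). Both calls also held against P19 controls of batch 1 (-1.13 and -0.45), as did that of Herc6 (-0.74 in its own batch, -1.01 against batch 1). Of the 8 calls, only the 2 of Bst2 and Parp9 held in every alternative setting, and that of Herc6 ended in at least 1. Herc6 read 7.59, 7.58 and 7.52 in controls of batch 3 and 7.35, 6.60 and 6.53 with NeuroD2. The other 5 that fell had differences of -1.09 in Irgm1, -0.80 in Gbp2, -0.67 in Oasl2, -0.67 in Tapbp and -0.66 in Irf1. Against P19 controls of batch 1 their differences were -0.10, -0.27, 0.06, -0.06 and -0.21, and these were not called. Of the 8 that fell, Oasl2, Gbp2 and Parp9 were under 7.03 in both groups, closer to background. Without the P19 array that stands apart, 13 were lower, against 11.2% of all genes in that fit.

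Untransduced MEFs and P19 cells differed in most members. In batch 1, 35 of 43 were higher in MEFs and 1 lower, against 24.8% and 26.9% of all genes, with a median difference of 3.03 (all genes -0.12). Among the largest was Ifit1, 11.28, 11.07 and 11.13 in MEFs and 4.08, 4.16 and 4.04 in P19 cells (difference 7.07, SE 0.13, adjusted p = 1.03e-19), with Usp18 (5.88), Ifi35 (5.63) and Xaf1 (5.62). The P19 values of Ifit1 lie below the lower quartile of the arrays. Oas3 was the member called lower (difference -0.28, adjusted p = 0.0363). The 7 others were not called, among them Irf1 (0.09), Herc6 (0.03) and Samhd1 (0.02), whose signals were above the median of all genes in both cells. Without the array that stands apart 36 were higher and 1 lower, against 24.1% and 31.4% of all genes, with Ifi35 at 6.21 and Usp18 at 6.07, and the member called lower was then Samhd1 (-0.28) and not Oas3 (-0.19). In MEF controls of batch 2 set against the batch 3 P19 controls, 34 members stood higher and 2 lower, against 20.5% and 26.8% of all genes, with Ifit1 again at 7.19. That pair lies in different batches, so batch and cell cannot be told apart in it. The comparison of controls in batch 1 shares its MEF arrays with the MyoD comparison.

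The controls of 1 cell type also differed between batches. MEF controls of batch 2 had 1 member higher (Stat2, 0.53) and 4 lower (Oas2 -0.96, Oas1a -0.76, Ifih1 -0.62 and Oasl2 -0.56) than those of batch 1, against 1.16% and 1.12% of all genes. Without the P19 array that stands apart there were 12 (3 higher, 9 lower), against 6.75% and 9.58% of all genes in that fit, and without any 1 of the 6 MEF controls 2 or 3. The batch 3 P19 controls had 8 members above and 0 below those of batch 1, against 10.6% and 3.48% of all genes, among them Irgm1 (0.99), Dtx3l (0.82), Psmb10 (0.78) and Oasl2 (0.73). Without the array that stands apart 10 were higher and 0 lower, against 8.29% and 9.14% of all genes, with Dtx3l at 0.46, Psmb10 at 0.62 and Oasl2 at 0.79, and Irgm1 no longer called. Without replicate 1 or without replicate 3 of the batch 1 controls 12 were called each, and on the 6 P19 control arrays alone limma called 0, with 7 at an unadjusted p under 0.05. Without replicate 3 of the batch 3 controls there were 5.

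Set against the controls of the other batch, most MyoD falls in MEFs were called again. With MEF controls of batch 2, 34 members were lower and 2 higher (Samhd1 0.64 and Oas3 0.30), against 15.4% and 14.3% of all genes, and 32 of the 33 calls were shared. MEFs with NeuroD2 against controls of batch 1 gave 16 lower and 3 higher, against 8.84% and 7.8%, with all 9 falls kept, among them Iigp1 (-1.83) and Ifit3 (-1.82). P19 cells with MyoD against controls of batch 3 gave 12 lower and 2 higher, against 6.28% and 5.13%, and all 4 calls kept, with Rsad2 at 2.38 and Trim25 at 1.64. P19 cells with NeuroD2 against controls of batch 1 gave 7 lower and 1 higher (Samhd1, 0.48), against 11.4% and 16.7%, and 3 of the 8 falls kept.

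**Figure D5:**
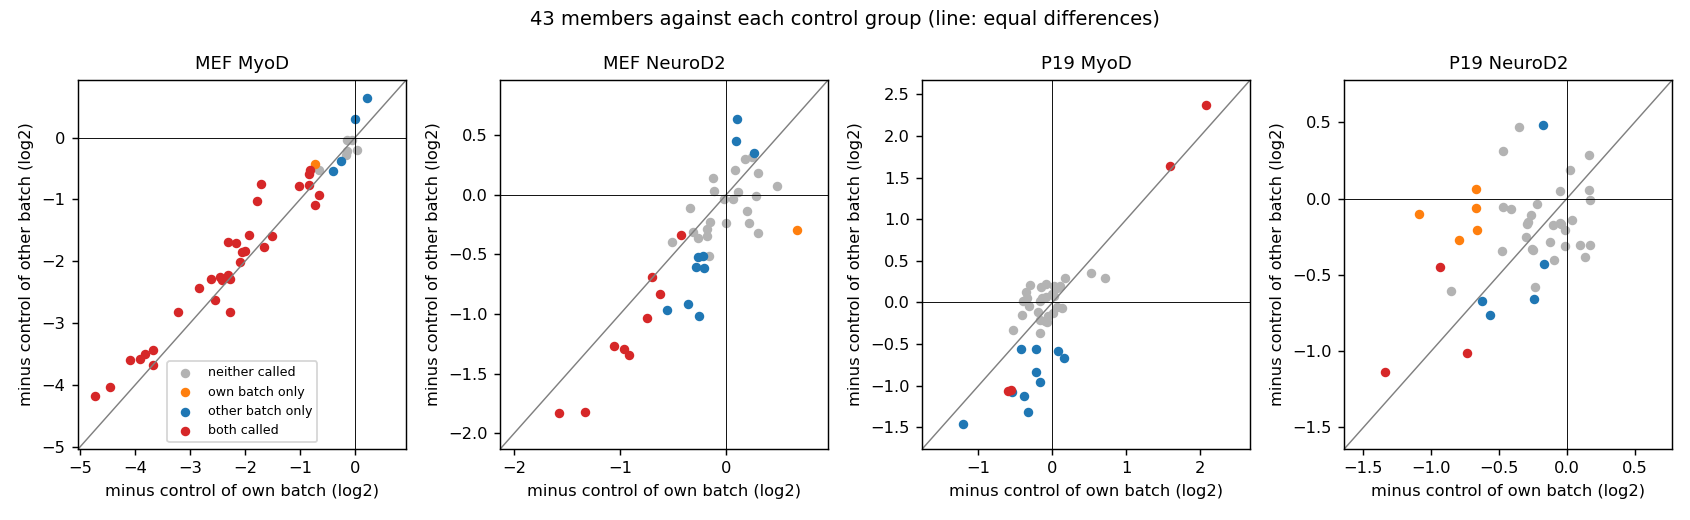
Difference of 43 members from the controls of their own batch (horizontal axes, log2) and of the other batch (vertical axes, log2) in the 4 transduced groups, coloured by which difference was called. Most points for MEFs with MyoD lie near the line of equal differences, with some off it, such as Oas2 (-1.71 and -0.75) and Oas1a (-1.79 and -1.03). In P19 cells with NeuroD2 5 of the 8 members called against their own batch were not called against the other.

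The effects themselves were compared within the fit. The MyoD effect was lower in MEFs than in P19 cells for 30 members and higher for 0, against 14.7% and 6.39% of all genes, and without the array that stands apart 33 were lower and 1 higher, against 16.8% and 13.7%. Oasl2 differed by -4.35 (SE 0.19, adjusted p = 2.9e-13), with P19 means of 4.58 in controls and 4.19 with MyoD. Rsad2 and Trim25, which rose in P19 cells, differed by -2.14 and -2.62. Of the 39 members not called with MyoD in P19 cells, 31 were under 7.03 in both groups, where a fall could hardly show. For these a weaker response and a low start cannot be told apart. The MyoD MEFs, unlike the P19 cells, also went into differentiation medium, so cell type and medium cannot be told apart. In MEFs the MyoD effect was below the NeuroD2 effect for 29 members and above for 0, against 10.5% and 8.33% of all genes, and without that array 33 were below and 1 above, against 19.4% and 16.3%. Bst2, Stat2 and Irf7 were among them (-2.82, -2.38 and -2.20), and Ifit2 (0.02, adjusted p = 0.982), which fell with each factor, was not. Factor, batch and culture medium cannot be told apart in this contrast.

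The NeuroD2 effect differed between MEFs and P19 cells for 11 members, 5 higher and 6 lower in MEFs, against 4.53% and 5.63% of all genes. The 5 were Bst2 (1.54), Irgm1 (1.31), Tapbp (0.93), Parp9 (0.76) and Irf1 (0.75), which fell in P19 cells. The 6 were Iigp1 (-1.33), Ifi47 (-1.23), Ifit3 (-1.08), Ifit2 (-0.91), Ifit1 (-0.86) and Gbp3 (-0.74), which fell in MEFs. All 6 were under 7.03 in both P19 groups of batch 3, where a fall could hardly show. Without the P19 array that stands apart 17 differed, 11 higher and 6 lower, against 12.6% and 12.3% of all genes. In P19 cells the MyoD effect was above the NeuroD2 effect for 3 members (Trim25 2.21, Rsad2 2.09 and Bst2 1.17) and below for 0, against 2.6% and 2.93% of all genes, and without that array 5 were above, against 4.52%. The count was also 5 without replicate 1 of the batch 1 or of the batch 3 P19 controls.

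The pathway around the members was read from further lists. Their counts stand beside the shares of all genes called lower and higher in the same comparison. These shares were 14.5% and 10.8% in MEFs with MyoD, and 5.94% and 6.41% in MEFs with NeuroD2. In P19 cells they were 0.676% and 2.03% with MyoD, and 3.24% and 5.1% with NeuroD2. Of 22 measured interferon, receptor and signalling genes, 10 fell and 0 rose in MEFs with MyoD. Ifnar1 read 10.22, 10.16 and 10.15 in controls and 8.82, 8.65 and 8.72 with MyoD (difference -1.45, SE 0.21, adjusted p = 1.41e-05), and Ifnar2 read 10.71, 10.77 and 10.68 in controls and 9.58, 9.62 and 9.60 with MyoD (difference -1.12, SE 0.14, adjusted p = 2.27e-06). Neither receptor gene's groups overlapped. Il10rb, a receptor chain shared with type III interferons, and the kinase Jak2 fell by 1.53 and 1.42. Ifnb1, the interferon made by fibroblasts, was low in all groups, at 4.65, 5.08 and 4.54 in MEF controls and 4.70, 4.99 and 4.73 with MyoD (difference 0.05, adjusted p = 0.973). With NeuroD2 in MEFs 3 of the 22 fell, Jak2 (-1.05), the feedback inhibitor Socs1 (-0.83) and Ifngr2 (-0.61). Socs1 was also the 1 gene of the 22 lower in each P19 comparison (-0.57 with MyoD, -0.52 with NeuroD2). Of all genes, 0.676% and 3.24% were lower there, so with NeuroD2 a count of 1 is near the share of all genes.

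Of 15 nucleic acid sensing genes, 7 fell and 0 rose in MEFs with MyoD. Ddx58 (RIG-I) read 10.40, 10.16 and 10.20 in controls and 7.77, 7.48 and 7.52 with MyoD (difference -2.66, SE 0.21, adjusted p = 2.24e-09), and it was 10.34, 10.27 and 9.95 with NeuroD2. The kinase Ikbke and the receptor Tlr3 fell by 2.32 and 1.74. Of 39 other interferon-stimulated genes, 32 fell and 0 rose, led by Rtp4 (-4.38), Ifitm1 (-3.80) and Gbp7 (-3.20). With NeuroD2 in MEFs that list split, 11 lower and 7 higher, with Ifi204 (-2.66), Isg20 (-1.47) and Ifi27l2a (-1.36) down and Ube2l6, the E2 enzyme for ISG15, up by 1.28. In the P19 comparisons it had 1 higher and 0 lower with MyoD, and 0 higher and 4 lower with NeuroD2.

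Of 9 MHC class I and peptide loading genes, 8 fell with MyoD in MEFs, among them H2-D1 (-1.84), the trimming enzyme Erap1 (-1.80) and H2-K1 (10.39, 10.39 and 10.31 to 9.47, 9.41 and 9.57, -0.88). With NeuroD2 in MEFs H2-K1 rose (10.03, 10.17 and 9.92 to 10.69, 10.65 and 10.63, 0.62, adjusted p = 0.0471), and 2 of the 9 fell. The H2-K1 call was close to the threshold, and controls of batch 1 read higher than those of batch 2. Against controls of batch 1 the rise is therefore smaller. Of 14 standard proteasome genes, 4 rose and 0 fell with MyoD in MEFs, and limma called 0 of 14 in the other 3 comparisons, where 2 (MEFs with NeuroD2), 3 (P19 with MyoD) and 0 (P19 with NeuroD2) had an unadjusted p under 0.05. NF-kappaB targets, a programme that inflammatory signals share with interferon, had 11 of 17 lower with MyoD in MEFs and 5 of 17 with NeuroD2. Lcn2 fell by 5.72 and 3.96 in these, and Ccl7 by 2.53 and 1.95. The shares of all genes called in each comparison are those given with the members.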

How the data were processed

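Affymetrix mouse arrays measured RNA in 24 samples, grouped by their titles. The values are log2 signals per probe set as the authors deposited them, and the submitters' processing notes name limma. How background, probe-set summary and normalization were handled: not given in the sources used here. Of 45101 probe sets, 34945 map to 1 symbol, and the one with the highest mean over all arrays was kept for each of 18193 genes. Differences came from limma 3.58.1 in R 4.3.3, with 1 group-means model over all 24 arrays (16 residual degrees of freedom), two-sided p-values and Benjamini-Hochberg adjustment over all genes in each comparison. The code was tested on simulated data. Members and lists were chosen with earlier results of these data known. Per-array values are given for each role's members with the largest and smallest difference in MEFs with MyoD, for a fixed set of central genes, and for the largest called members elsewhere, and up to 3 called genes per list are named. Alternatives were quantile normalization, median shifts, a filter on dim genes, other probe-set choices, array weights, fits on only the arrays compared, a replicate block, the other batch's controls and leaving out each array. Arrays have no read depth, and 3 per group limit the precision.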

Additional observations from a re-analysis of the deposited data

Results flagged for a closer look

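Effects of the same factor were compared between cell types, and effects of the 2 factors within a cell type, by contrasts in the limma fit. The MyoD effect was lower in MEFs than in P19 cells for 30 of 43 members (14.7% of all genes). Of the 39 members not called with MyoD in P19 cells, 31 were under 7.03 in both groups, where a fall could hardly show. The NeuroD2 effect was higher in MEFs than in P19 cells for 5 members and lower for 6 (4.53% and 5.63% of all genes). Those 6 were under 7.03 in both P19 groups of batch 3. In MEFs the MyoD effect was below the NeuroD2 effect for 29 members (10.5% of all genes), and in P19 cells it was above it for 3 (2.6% of all genes). Batch differs between the factors, and between cell types for NeuroD2, so batch cannot be told apart from these differences. The MyoD MEFs, unlike the P19 cells, also went into differentiation medium, so medium and cell type cannot be told apart for MyoD.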

How the results depend on the processing

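Counts of called members in MEFs with MyoD (33), between MEF and P19 controls (36), for the MyoD effect between cell types (30) and between factors in MEFs (29) stayed within 1.5 times in every setting tried, with ranges on leaving out each array of 33 to 35, 33 to 37, 29 to 34 and 26 to 34. The others moved more, and the cause was not tested. With array weights the counts were 25 for MEFs with NeuroD2 (10 as reported), 14 for P19 cells with MyoD (4), 16 for P19 cells with NeuroD2 (8), 16 between MEF controls (5), 15 between P19 controls (8), 18 for the NeuroD2 effect between cell types (11) and 9 between factors in P19 cells (3). With only the arrays compared they were 17 for MEFs with NeuroD2, 1 for P19 cells with MyoD, 15 between MEF controls and 0 between P19 controls (limma, 7 at an unadjusted p under 0.05). With controls of the other batch they were 19 for MEFs with NeuroD2 and 14 for P19 cells with MyoD. P19 cells with MyoD had 2 without probe sets that may match several transcripts, and the factors in P19 cells differed in 5 after median shifts. Leaving out each array gave 8 to 17 for MEFs with NeuroD2, 3 to 12 for P19 cells with MyoD, 7 to 13 for P19 cells with NeuroD2, 2 to 12 between MEF controls, 5 to 12 between P19 controls, 8 to 17 for the NeuroD2 effect and 3 to 5 between factors in P19 cells.

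Counting only members called in the reported or the alternative fit, signs turned with controls of the other batch for Oas2 in MEFs with NeuroD2 (-0.30), Samhd1 and Dtx3l in P19 cells with MyoD (-0.58 and -0.67), and Oasl2 and Samhd1 in P19 cells with NeuroD2 (0.062 and 0.48). With array weights Samhd1 in P19 cells with MyoD turned to -0.23.

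Samples share only a replicate number: 7 of 24 same-number pairs had a correlation of deviations over 0.1 (range -0.194 to 0.342). With the replicate block the counts were 33 for MEFs with MyoD, 11 for MEFs with NeuroD2, 3 for P19 cells with MyoD, 9 for P19 cells with NeuroD2, 34 between MEF and P19 controls, 4 between MEF controls, 7 between P19 controls, 30 for the MyoD effect, 10 for the NeuroD2 effect, and 29 and 3 between factors in MEFs and P19 cells. Signals near background limit what dim members can show.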
